A study of Homo sapiens with 12 samples.

Results

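The vitamin K-dependent ligand GAS6, its antisense RNA GAS6-AS1, the related ligand PROS1 and the receptors AXL, TYRO3 and MERTK were followed in 12 RNA-sequencing libraries of endometrial cell lines exposed to AG-205. The 6 genes were matched by symbol to 6 of the 58735 Ensembl gene identifiers of the count table. GAS6 and GAS6-AS1 were chosen by their measured counts, since the fold difference between AG-205 and DMSO was larger in HEC-1A than in T-HESC, so their values are given as a description without a test, whereas PROS1 and the 3 receptors were added as their family. HEC-1A is an epithelial line from an endometrial adenocarcinoma and T-HESC an immortalized fibroblast-like line from endometrial stroma, so that each line is 1 isolate and not a tissue. Each was exposed to the compound AG-205 at 15 µM, or to the vehicle DMSO alone, over 32 h. This gave 4 groups of 3 libraries: HEC-1A DMSO, HEC-1A AG-205, T-HESC DMSO and T-HESC AG-205. AG-205 has been described as an inhibitor of the heme-binding protein PGRMC1, a specificity that the study disputes. All groups were grown in the same serum-supplemented medium without transfection. RNA came from independent culture experiments, and standard deviations (SD) and p-values reflect the spread between those 3 cultures per group. T-HESC AG-205 replicate 1 stood apart, with a chi-square per degree of freedom over genes of 160 and 207 from the other libraries of its group, against 64.5 between those. On lower values, T-HESC DMSO replicate 3 also stood apart, at 47.3 and 40.8 against 11.2. The same held for HEC-1A AG-205 replicate 3, at 15.4 and 14.2 against 4.19.

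GAS6 and protein S, the product of PROS1, are secreted proteins that bind phosphatidylserine on the surface of dying cells through a domain that must be carboxylated with vitamin K as cofactor. Their other end engages the TAM receptors, named after TYRO3, AXL and MERTK, which are tyrosine kinases that dampen innate inflammatory signalling and drive the engulfment of dead cells. GAS6 binds all the TAM receptors and is the ligand of AXL, whereas protein S acts on TYRO3 and MERTK and is also known as a plasma anticoagulant. In the endometrium such clearance accompanies the shedding and repair of the tissue.

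GAS6 (ENSG00000183087) lies on the minus strand of GRCh38 at chr13:113820549-113864076, and its annotated exons cover 6015 bases in 15 blocks (GENCODE 44). GAS6-AS1 (ENSG00000233695), a long noncoding RNA, is read from the opposite strand at chr13:113815630-113845744. Of its span of 30.1 kb, 25.2 kb lie inside GAS6, and its last exon of 6.66 kb makes up 92.9% of its exon length. Exons of the 2 genes share 421 bases, which is 7.00% of the GAS6 exons and 5.87% of the GAS6-AS1 exons. The sources used here do not name the strandedness of the counting, so reads in that stretch cannot be assigned to either gene with certainty. Of the last GAS6-AS1 exon, 123 bases lie under GAS6 exons and the rest lies in GAS6 introns. Whether reads counted there came from unspliced GAS6 RNA was not tested. The exon models that the authors counted on came from an older annotation. A further 62 exon bases of GAS6-AS1 are shared with TMEM255B on the same strand. Another transcript, GAS6-DT, a long noncoding RNA, starts 36 bases from the start of GAS6 and is read in the other direction.

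**Figure D1:**
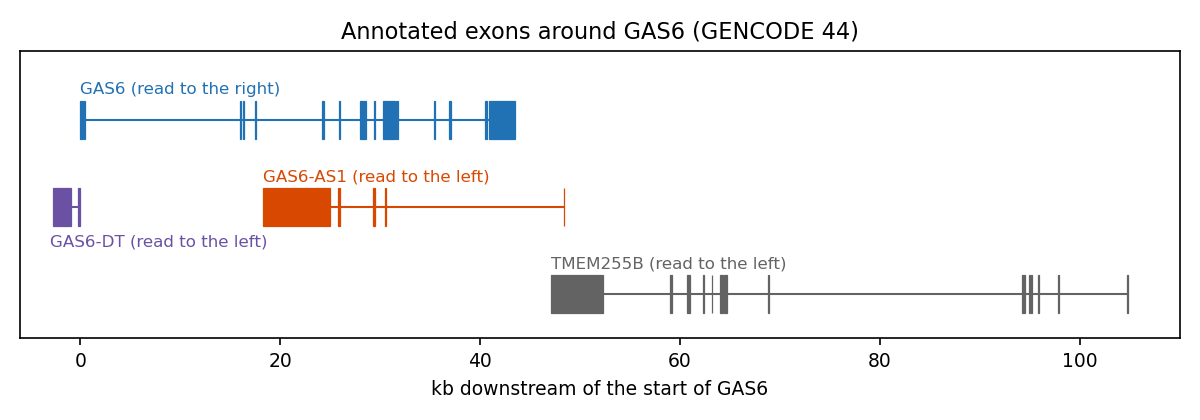
Exons annotated around GAS6, with the distance from its start on the horizontal axis in kb. Boxes are exons, lines are introns, and the direction of each gene is written beside its name. GAS6-AS1 starts beyond the end of GAS6 and ends inside it, so that 25.2 of its 30.1 kb lie within GAS6, whereas GAS6-DT leaves from the other side of the GAS6 start.

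The other genes have no neighbour with a comparable overlap. PROS1 (ENSG00000184500) lies at chr3:93873051-93980003 on the minus strand, and AXL (ENSG00000167601) at chr19:41219223-41261766, TYRO3 (ENSG00000092445) at chr15:41557675-41583589 and MERTK (ENSG00000153208) at chr2:111898607-112029561 on the plus strand. A long noncoding RNA on the other strand shares 67 bases, or 1.30%, with the AXL exons. PROS1 and TYRO3 have annotated pseudogenes, PROS2P and TYRO3P, which held at most 2 and 4 counts in any library.

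The 250 bases before the RefSeq start site are given for GAS6, AXL and MERTK, the genes of the 6 with a RefSeq start that is also the start of the gene in GENCODE 44, so that the levels that follow can be set beside them. They were read 5′ to 3′ on the strand of each gene from GRCh38.p14, and capitals mark the GC box GGGCGG on either strand, a motif found in many promoters without a TATA box. RefSeq windows matched 5 of the 6 genes. GAS6-AS1 had no entry.
GAS6 (chr13:113864077-113864326, minus strand): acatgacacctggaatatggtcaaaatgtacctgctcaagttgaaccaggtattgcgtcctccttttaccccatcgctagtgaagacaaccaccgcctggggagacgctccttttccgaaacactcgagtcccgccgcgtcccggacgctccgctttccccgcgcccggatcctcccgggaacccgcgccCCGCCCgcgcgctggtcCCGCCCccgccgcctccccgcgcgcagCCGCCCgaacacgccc
AXL (chr19:41218973-41219222, plus strand): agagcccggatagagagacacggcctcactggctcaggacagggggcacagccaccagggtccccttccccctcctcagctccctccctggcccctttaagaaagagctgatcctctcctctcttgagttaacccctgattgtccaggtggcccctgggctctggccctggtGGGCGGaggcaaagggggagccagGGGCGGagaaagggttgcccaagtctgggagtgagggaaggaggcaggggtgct
MERTK (chr2:111898357-111898606, plus strand): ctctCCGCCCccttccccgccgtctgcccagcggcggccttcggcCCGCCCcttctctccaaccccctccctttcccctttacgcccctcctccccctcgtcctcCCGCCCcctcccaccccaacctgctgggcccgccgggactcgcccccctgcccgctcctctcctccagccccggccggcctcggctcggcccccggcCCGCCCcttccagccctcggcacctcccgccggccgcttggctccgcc

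GAS6 held 3 matches to the GC box, AXL 2 and MERTK 4, and 42.6% of the 35116 promoter windows of the same length held at least 1. The windows differed in base composition. G and C made up 66.8% of the bases before GAS6, 64.4% before AXL and 78.8% before MERTK, against a median of 58.0% over all windows. The stretch before GAS6 held 31 CpG dinucleotides, that before MERTK 25 and that before AXL 4. Of the other motifs searched on both strands, CACGTG (6.34% of all windows), TGANTCA (6.57%), CCAAT (32.0%) and TGACG (21.2%) had no match in the 3 windows, and TCACNCC (13.1%) had 1, in AXL, 27 bases before the start and apart from the GC boxes. These matches are descriptions of the letters, not of binding. The GAS6 window also holds the start of GAS6-DT, whose own window of 250 bases before its RefSeq start shares 100 bases with it.

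GAS6 was close to the detection limit in HEC-1A and abundant in T-HESC. In HEC-1A DMSO it had 4, 3 and 2 counts in the 3 libraries, and with AG-205 it had 39, 33 and 27. Every AG-205 library lay above every DMSO library, on a low level. Groups without overlap, in either direction, made up 31.5% of all genes tested in this line. After scaling to the adjusted library total, these counts correspond to 0.249 ± 0.0751 CPM (counts per 1000000 of that total, mean ± SD, n = 3) with DMSO and 2.77 ± 0.410 CPM with AG-205. The ratio of the summed counts per scaled total was 10.8, with an exact 95% interval of 5.46 to 24.3 that covers counting error only.

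In T-HESC, GAS6 had 7536, 6346 and 3965 counts with DMSO and 4519, 3600 and 6119 with AG-205. The libraries of the groups overlapped. Mean levels were 496 ± 89.3 CPM with DMSO and 400 ± 124 CPM with AG-205, a difference smaller than the SD of the AG-205 group. The order of the groups was therefore HEC-1A DMSO, HEC-1A AG-205 and, above both, the T-HESC groups, which did not differ beyond their spread. The GAS6 level in HEC-1A with AG-205 remained far below that of T-HESC, where the summed counts per scaled total were 146 times those of HEC-1A with AG-205 (counting interval 120 to 180).

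GAS6-AS1 was also near the detection limit in HEC-1A DMSO, and its amount relative to GAS6 differed between the lines. It had 0, 0 and 1 count in HEC-1A DMSO and 52, 64 and 16 in HEC-1A AG-205. All 3 AG-205 libraries were above the DMSO libraries, in groups apart as for 31.5% of all genes tested in this line. Replicate 3, which also had the smallest total of all libraries (7168542 counts), was the lowest AG-205 library. The mean with AG-205 was 3.39 ± 1.41 CPM, and the ratio to the single count with DMSO, per scaled total, was 129 with a counting interval from 22.8 to 5151, so that its size is poorly bounded.

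In T-HESC, GAS6-AS1 had 81, 69 and 57 counts with DMSO and 28, 62 and 45 with AG-205. On the CPM scale the groups did not overlap, as for 11% of all genes tested in this line, at 6.09, 5.71 and 5.69 against 2.56, 4.66 and 3.81. The ratio of summed counts per scaled total was 0.640, with a counting interval of 0.512 to 0.799 that leaves out the spread between cultures. The AG-205 libraries of T-HESC, with or without replicate 1, lay below their controls, while those of HEC-1A lay above theirs. As the gene was chosen for its response, this is a description only. With AG-205, the summed counts per scaled total in T-HESC were 1.04 times those of HEC-1A (counting interval 0.811 to 1.33). The lines thus had like counts assigned to GAS6-AS1 at very different levels of GAS6. How many of these reads came from unspliced GAS6 RNA was not tested.

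**Figure D2:**
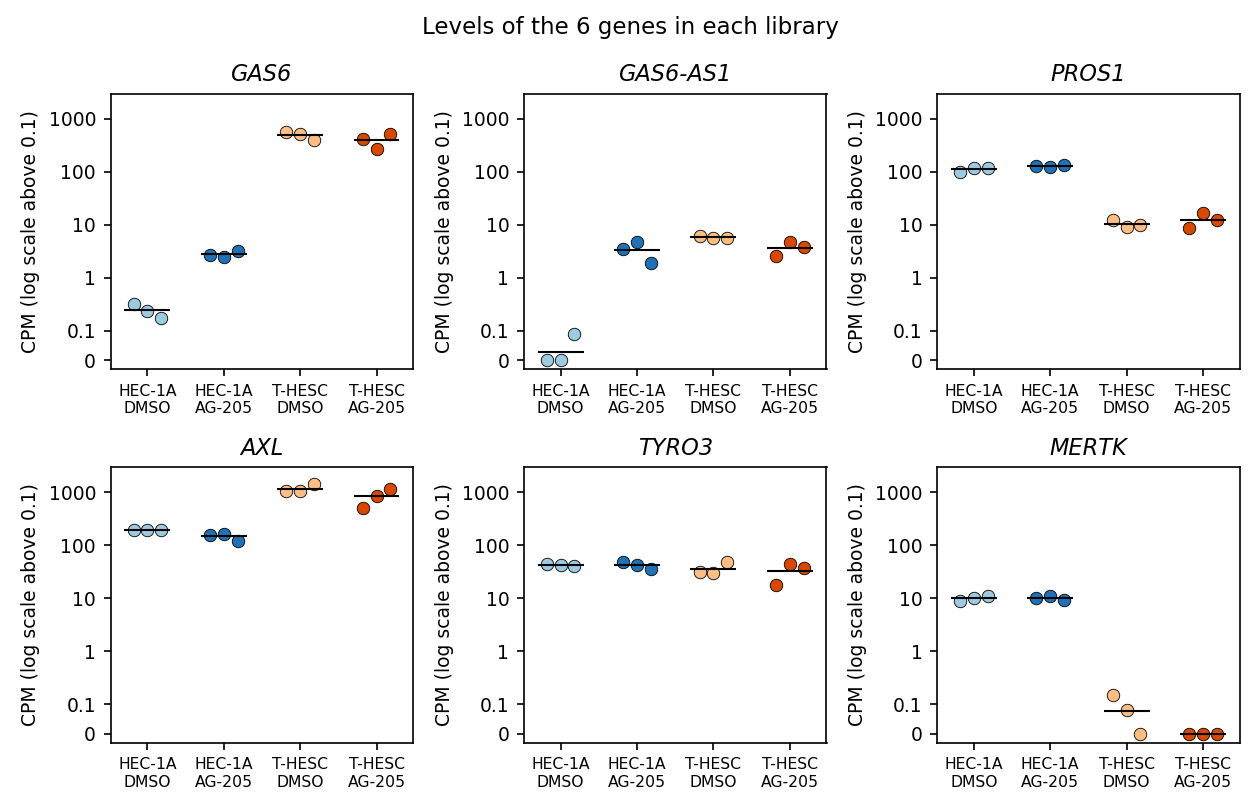
Levels of the 6 genes in each of the 12 libraries, in CPM on a scale that is logarithmic above 0.1, with 1 point per library, bars at the mean of 3 libraries, and 1 panel per gene. GAS6 and GAS6-AS1 are near 0 in HEC-1A DMSO and higher in each HEC-1A AG-205 library. PROS1 and MERTK are higher in HEC-1A and AXL is higher in T-HESC, whereas TYRO3 is at a like level in all groups.

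The antisense counts per 100 GAS6 counts show this difference directly. In HEC-1A AG-205 the 3 libraries had 133, 194 and 59.3 GAS6-AS1 counts per 100 GAS6 counts, and 133 in their sum. In T-HESC the values were 1.07, 1.09 and 1.44 with DMSO and 0.620, 1.72 and 0.735 with AG-205. The T-HESC groups overlapped, and every T-HESC library was far below every HEC-1A AG-205 library. In HEC-1A DMSO the ratio rests on 1 GAS6-AS1 count and 9 GAS6 counts and cannot be read. Per kb of exon, GAS6-AS1 in HEC-1A AG-205 was at 0.473 CPM and GAS6 at 0.461 CPM, and in T-HESC DMSO at 0.813 and 82.4 CPM. The like values in HEC-1A AG-205 depend on the length used. The exons of GAS6 cover 6015 bases but its longest transcript has 2646, on which its value would be higher. For GAS6-AS1 both lengths are 7169 bases.

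**Figure D3:**
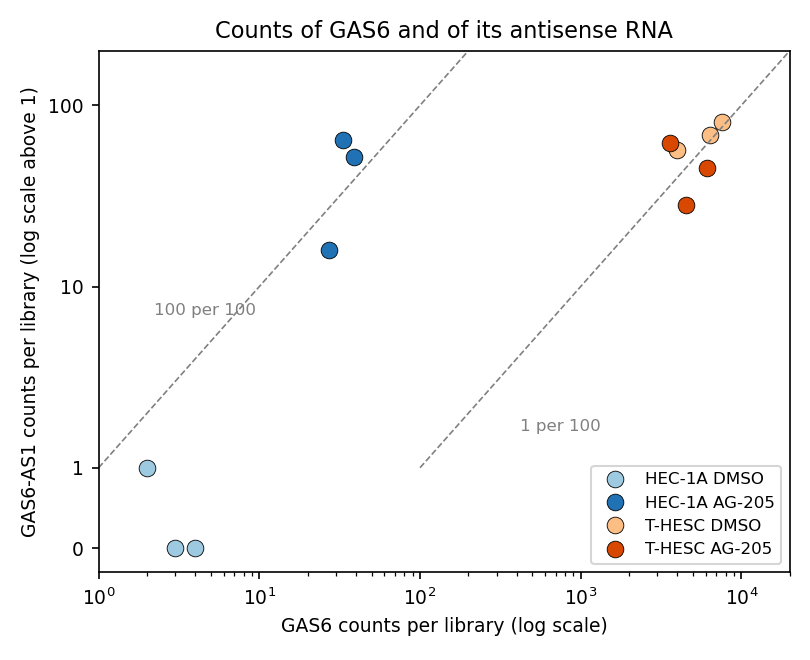
Counts of GAS6 (horizontal axis, log scale) and of GAS6-AS1 (vertical axis, log scale above 1), with 1 point per library and colours for the 4 groups. Dashed lines mark 100 and 1 antisense counts per 100 GAS6 counts. The HEC-1A AG-205 libraries lie around the upper line at 59.3 to 194 per 100, and the 6 T-HESC libraries around the lower line at 0.620 to 1.72 per 100.

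The other transcripts of the locus did not share the HEC-1A change. GAS6-DT had no count in any of the 6 HEC-1A libraries. In T-HESC it had 92, 71 and 63 counts with DMSO and 30, 43 and 53 with AG-205. These groups did not overlap, as for 11% of all genes tested in this line, and AG-205 was lower. Against a floor of 3 counts over a group, GAS6-DT was at least 76.4-fold higher in T-HESC than in HEC-1A with DMSO and at least 42.6-fold higher with AG-205. TMEM255B, whose last exon holds the first exon of GAS6-AS1, was also at 0 in all HEC-1A libraries and had 5 to 17 counts in those of T-HESC.

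Within 500 kb of GAS6 the table held 37 genes. Of these, 14 had at least 10 counts in every library of a group: GAS6-AS1, GAS6-DT, ADPRHL1, CDC16, CHAMP1, DCUN1D2, GRTP1, LAMP1, RASA3, SWINGN, TFDP1, TMCO3, UPF3A and ENSG00000276248. Leaving out GAS6-AS1, none of the 12 neighbours tested in HEC-1A and none of the 14 tested in T-HESC was called by edgeR's quasi-likelihood test. A call needed a Benjamini-Hochberg adjusted p below 0.05 together with a change by more than 1 on the log2 scale, the fold limit. By these limits 2.78% of 14122 genes were called in HEC-1A, and 0.08% of 13753 in T-HESC. TFDP1, a partner of the E2F transcription factors, was lower with AG-205 in HEC-1A, at 195 ± 6.90 CPM against 255 ± 7.75 CPM (log2 fold change -0.38, SE 0.085, edgeR adjusted p = 0.0126), which passed the p threshold but not the fold limit. Over 11 alternative settings that adjusted p ranged from 0.000308 to 0.414 and was under 0.05 in 8. In T-HESC its value was -0.42 (SE 0.21, edgeR adjusted p = 0.993).

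PROS1, the other ligand, was expressed mainly in HEC-1A. It had 1234, 1478 and 1319 counts with DMSO and 1865, 1698 and 1134 with AG-205 in HEC-1A. After scaling, the DMSO libraries had 101, 118 and 118 CPM and the AG-205 libraries 127, 125 and 136 CPM. The groups did not overlap, as for 31.5% of all genes tested in this line, and the difference was small and not past the threshold (log2 fold change 0.20, SE 0.095, edgeR adjusted p = 0.199). In T-HESC, PROS1 had 161, 108 and 99 counts with DMSO and 96, 221 and 144 with AG-205, in groups that overlapped. There the log2 difference was 0.26 (SE 0.30, edgeR adjusted p = 0.993), or 0.46 without AG-205 replicate 1.

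Between the lines, PROS1 was the reverse of GAS6. With DMSO it was at 10.3 ± 1.63 CPM in T-HESC and 112 ± 9.58 CPM in HEC-1A (log2 difference -3.45, SE 0.14, edgeR adjusted p = 1.08e-07), in a comparison that called 44.6% of 14789 genes. Per kb of exon, GAS6 made up 0.198% ± 0.0773 of the summed level of both ligands in HEC-1A DMSO, 1.84% ± 0.188 in HEC-1A AG-205, 97.6% ± 0.433 in T-HESC DMSO and 96.2% ± 2.35 in T-HESC AG-205. PROS1 was thus nearly all of the summed GAS6 and PROS1 RNA in HEC-1A with and without AG-205, and GAS6 nearly all of it in T-HESC. Other ligands, such as LGALS3, were not part of this sum.

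AXL, the receptor with the highest affinity for GAS6, was the most abundant receptor RNA in both lines. In HEC-1A it had 191, 198 and 191 CPM with DMSO and 157, 164 and 121 CPM with AG-205. Every AG-205 library lay below the DMSO libraries, and groups lay apart, in either direction, for 31.5% of all genes tested in this line. Replicate 3 with AG-205, the library with the smallest total, was the lowest. Mean levels were 194 ± 4.20 and 147 ± 23.1 CPM (log2 fold change -0.39, SE 0.11, edgeR adjusted p = 0.0392), which is past the p threshold but under the fold limit, so that AXL was not called. Without that library the log2 fold change was -0.28 (edgeR adjusted p = 0.00589), and over 11 alternative settings the adjusted p ranged from 0.00589 to 0.825 and stayed under 0.05 in 6.

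In T-HESC, AXL had 1038, 1079 and 1417 CPM with DMSO and 515, 849 and 1153 CPM with AG-205. The groups overlapped, and the lowest value belonged to AG-205 replicate 1, a library that stood apart from its group. With AG-205 the level differed by -0.51 on the log2 scale (SE 0.33, edgeR adjusted p = 0.993), and by -0.26 without that replicate. Subtracting the AG-205 effect of HEC-1A from that of T-HESC left -0.10 on the log2 scale (SE 0.36, edgeR adjusted p = 1.00), in a test that called 0.174% of 16132 genes. With DMSO, AXL was higher in T-HESC than in HEC-1A, at 1178 ± 208 against 194 CPM (log2 difference 2.59, SE 0.14, edgeR adjusted p = 4.44e-07).

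TYRO3, a receptor best known from the nervous system, was at a like level in all 4 groups. Its libraries had 45.1, 42.9 and 40.3 CPM in HEC-1A DMSO, 47.9, 41.9 and 35.5 in HEC-1A AG-205, 31.9, 30.2 and 47.7 in T-HESC DMSO and 18.1, 44.7 and 37.2 in T-HESC AG-205. The groups overlapped in each comparison of AG-205 with DMSO and no neighbours in the order of the means differed beyond their spread. AG-205 libraries differed from DMSO libraries by -0.03 on the log2 scale in HEC-1A (SE 0.11, edgeR adjusted p = 0.919) and by -0.15 in the stromal line (SE 0.35, edgeR adjusted p = 0.993), or by 0.14 there without AG-205 replicate 1. Between the lines with DMSO it was -0.24 (SE 0.17, edgeR adjusted p = 0.243). Single libraries moved this value, which was -0.44 (edgeR adjusted p = 0.000624) without T-HESC DMSO replicate 3, the highest of its group, -0.09 (0.650) without replicate 2 and -0.12 (0.565) without replicate 1.

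MERTK, the receptor that macrophages use to engulf apoptotic cells, was detected almost only in HEC-1A. It had 108, 126 and 123 counts with DMSO and 147, 151 and 79 with AG-205 in that line, or 9.97 ± 1.08 and 10.2 ± 0.859 CPM (log2 fold change 0.04, SE 0.14, edgeR adjusted p = 0.888). T-HESC had 2, 1 and 0 counts with DMSO and none with AG-205, which is at the floor, so that no AG-205 fold is given there and MERTK was not among the genes tested in that line. With DMSO the summed counts per scaled total were 117 times as high in HEC-1A as in T-HESC (counting interval 39.8 to 572, edgeR adjusted p = 9.23e-07). With AG-205 they were at least 124-fold higher, against a floor of 3 counts over the group.

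The receptor make-up differed between the lines more than with AG-205. Per kb of exon, AXL was at 37.7 CPM, TYRO3 at 3.97 and MERTK at 2.41 in HEC-1A DMSO, and at 230, 3.40 and 0.0188 in T-HESC DMSO. AXL made up 85.5% ± 0.231 of the summed level in HEC-1A DMSO, 81.8% ± 1.02 in HEC-1A AG-205, 98.5% ± 0.126 in T-HESC DMSO and 98.1% ± 0.505 in T-HESC AG-205. In HEC-1A the AXL share was 85.5, 85.8 and 85.3% with DMSO and 81.7, 82.9 and 80.8% with AG-205, without overlap. The share of TYRO3 was 9.00% ± 0.547 against 11.1% ± 0.887 and that of MERTK 5.47% ± 0.596 against 7.10% ± 0.700. As parts of 1 sum, these shares rise when that of AXL falls. The levels of TYRO3 and MERTK themselves differed by -0.03 and 0.04 on the log2 scale in HEC-1A, and AXL was not called.

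**Figure D4:**
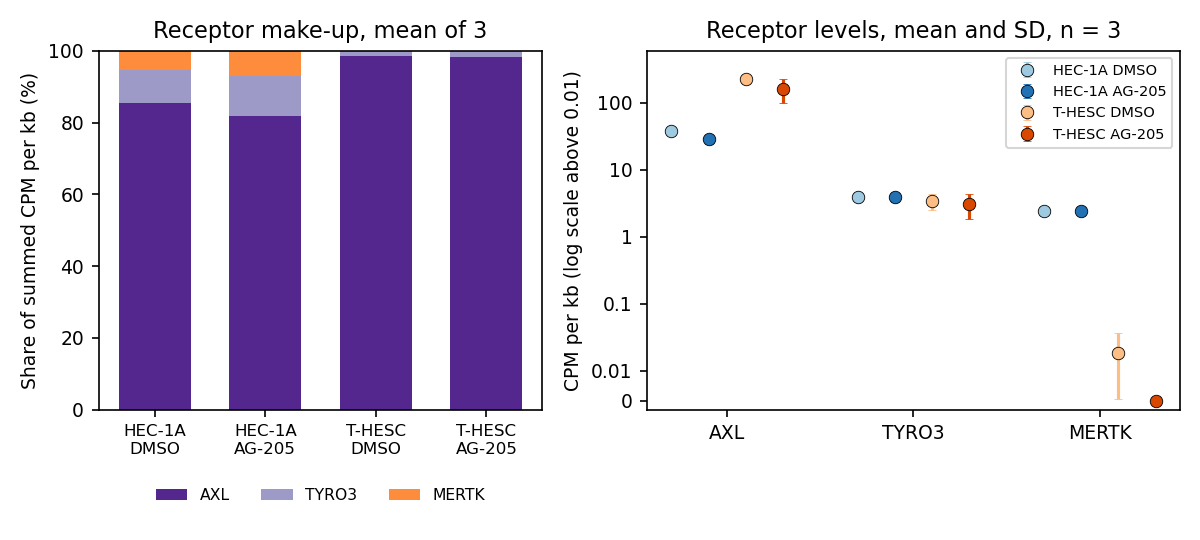
Left, mean share of AXL, TYRO3 and MERTK in their summed CPM per kb of exon in each group. Right, CPM per kb of exon of each receptor (log scale above 0.01), with points at the mean and bars for the SD of 3 libraries. AXL takes 81.8 to 98.5% in every group, and MERTK is seen in HEC-1A and is at or near 0 in T-HESC.

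The wider pathway was described with 8 lists of 90 genes in all, each found once in the table. In HEC-1A, 60 were tested and 1 was called, LGALS3, as in each of the 11 alternative settings, or 1.67% against 2.78% of all genes tested. At any fold, 12 of the 60 had an edgeR adjusted p under 0.05, a larger share than the 11.6% of all genes tested. The lists were not tested as sets. The median log2 fold change of the 60 genes was -0.09, beside 0.01 over all genes. In T-HESC, 63 were tested, none was called and none had an unadjusted p under 0.05 with edgeR, while 740 of all genes tested had. DESeq2 called no list gene there either. In the difference between the lines, 1 of 70 was called, again LGALS3, beside 0.174% of all genes tested, and this call was kept in 7 of 17 alternative settings.

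Among the other ligands and bridging proteins, LGALS3 and MFGE8 were tested in HEC-1A. LGALS3 encodes galectin-3, a lectin that also binds MERTK. It had 3.37, 3.34 and 3.50 CPM with DMSO and 10.1, 10.5 and 14.6 CPM with AG-205 in HEC-1A. Its AG-205 libraries were all well above the controls (log2 fold change 1.76, SE 0.19, edgeR adjusted p = 6.54e-05), in groups apart as for 31.5% of all genes tested in this line. In T-HESC it was at 111 ± 6.13 and 127 ± 18.4 CPM (log2 fold change 0.18, SE 0.21, edgeR adjusted p = 0.993). The difference of these effects was -1.58 (SE 0.25, edgeR adjusted p = 0.0298), and its adjusted p was 0.0586 to 0.141 when any 1 HEC-1A library or any 1 T-HESC DMSO library was left out, and 0.217 with the replicate number as a block.

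MFGE8, which bridges phosphatidylserine to integrins, had 92.3, 92.0 and 93.4 CPM with DMSO and 160, 148 and 128 CPM with AG-205 in HEC-1A. Its groups lay apart, as for 31.5% of all genes tested in this line. The change was under the fold limit (log2 fold change 0.65, SE 0.097, edgeR adjusted p = 0.000974, under 0.05 in 10 of 11 alternative settings). In T-HESC MFGE8 ranged from 439 to 1021 CPM with DMSO and from 376 to 1051 CPM with AG-205, and the groups overlapped (edgeR adjusted p = 0.993). With DMSO all 4 genes of this list that were tested, TUB, LGALS3, MFGE8 and EDIL3, were called higher in T-HESC than in HEC-1A, as were 22.3% of all genes tested. LGALS3 differed by 5.01 (SE 0.12, edgeR adjusted p = 7.37e-09) and MFGE8 by 3.02 (SE 0.28, edgeR adjusted p = 1.48e-05) on the log2 scale.

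The vitamin K cycle restores the cofactor for carboxylation of GAS6 and protein S. All 7 of its genes were tested in HEC-1A, and none was called. VKORC1L1, a vitamin K epoxide reductase, was lower with AG-205, at 82.5 ± 1.43 against 103 ± 5.00 CPM (log2 fold change -0.31, edgeR adjusted p = 0.0355). AIFM2, a vitamin K reductase, was at -0.37 (edgeR adjusted p = 0.0176). Both were under the fold limit, and over 11 alternative settings the adjusted p was under 0.05 in 3 for VKORC1L1 and in 6 for AIFM2. Of the other vitamin K-dependent proteins, 3 of 13 were tested in HEC-1A. PRRG2, a membrane protein with a carboxylated domain, stood at 0.53 (SE 0.13, edgeR adjusted p = 0.0215, under 0.05 in 5 of 11 alternative settings), while PRRG4 was at 0.22 and PRRG1 at -0.22 with adjusted p of 0.369 and 0.417.

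ADAM10 and ADAM17 are proteases that shed the outer part of TAM receptors. In HEC-1A, ADAM10 was at 361 ± 28.1 CPM with DMSO and 286 ± 13.9 CPM with AG-205 (log2 fold change -0.34, edgeR adjusted p = 0.0366), and ADAM17 was at -0.10 (edgeR adjusted p = 0.689). Of 12 genes of phosphatidylserine exposure, 8 were tested in HEC-1A. ATP8A1, a flippase that keeps the lipid on the inner leaflet, went from 7.71 to 5.14 CPM (log2 fold change -0.58, SE 0.16, edgeR adjusted p = 0.0339). The adjusted p was under 0.05 in 3 of 11 alternative settings for ATP8A1 and in 5 for ADAM10. PLSCR1 and ANO6 were at -0.17 and -0.15, with adjusted p of 0.358 and 0.447.

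Among other phosphatidylserine receptors and engulfment genes, 12 of 19 were tested in HEC-1A. GULP1, an adaptor of engulfment receptors, was at 107 ± 3.26 CPM with DMSO and 149 ± 15.5 CPM with AG-205 (log2 fold change 0.49, edgeR adjusted p = 0.00720). SCARB1, a lipoprotein receptor that also binds phosphatidylserine, had a log2 fold change of 0.39 (edgeR adjusted p = 0.0245), and ITGAV one of 0.22 (edgeR adjusted p = 0.312). Of 11 alternative settings, the adjusted p was under 0.05 in 9 for GULP1 and in 6 for SCARB1. Of 23 signalling genes, 20 were tested. The exchange factor VAV2 was at -0.38 (edgeR adjusted p = 0.0286) and the kinase subunit PIK3CB at -0.31 (edgeR adjusted p = 0.0477), which held in 6 and 3 of 11 alternative settings. The genes that share only the growth arrest specific name with GAS6 held no adjusted p under 0.05 among 6 tested, with GAS2L1 at -0.24 (edgeR adjusted p = 0.133), GAS1 at -0.20 (0.482) and GAS2L3 at -0.11 (0.509).

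**Figure D5:**
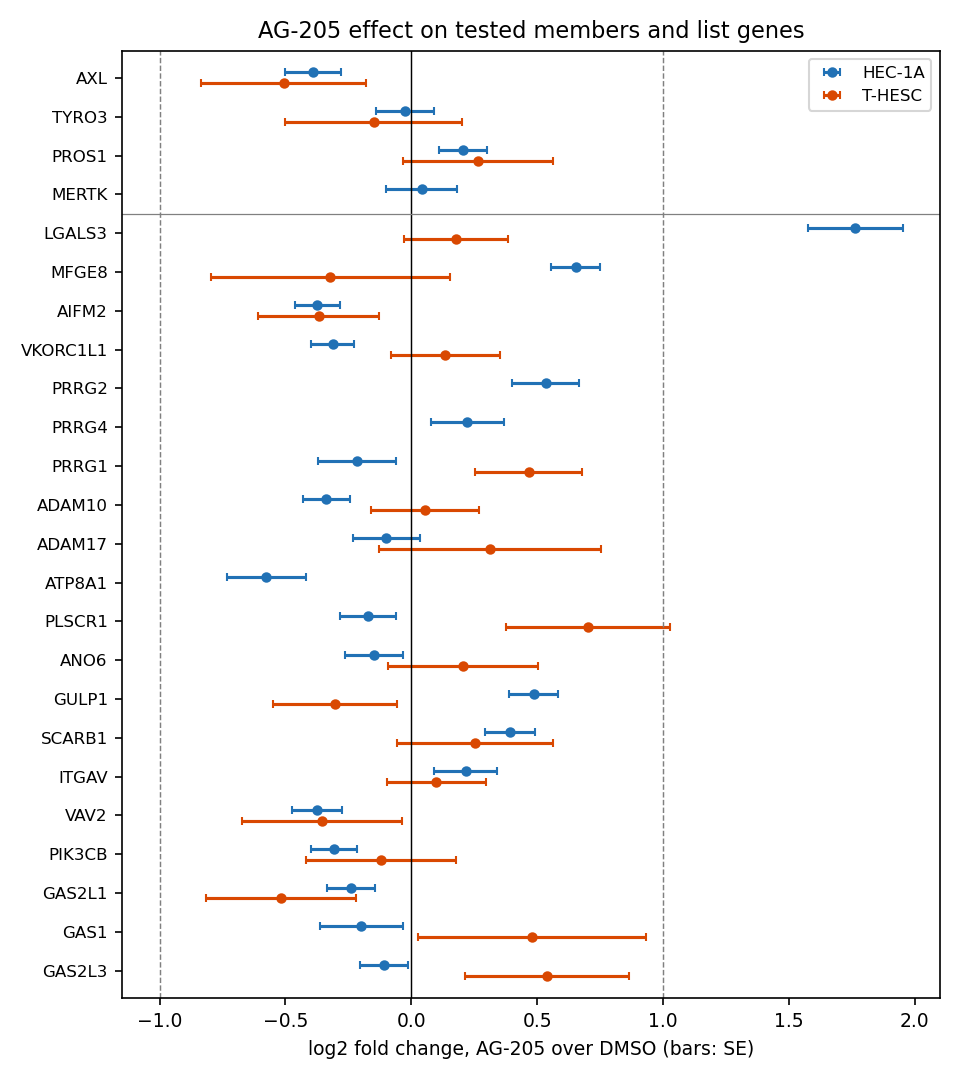
Log2 fold change of AG-205 over DMSO with its SE in HEC-1A (blue) and T-HESC (orange) for the members that were tested (above the line) and the named genes of the 8 lists (below it). A gene without an orange point was not tested in T-HESC, and dashed lines mark the fold limit. LGALS3 in HEC-1A, at 1.76, is the point beyond the fold limit.

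The genes most like GAS6 over the 12 libraries, by Pearson's r of log2 CPM among 16131 others, were FKBP11, EMP3, TP53INP1, PLAT and FAM20C, with r from 0.993 to 0.994. These points fall into the 2 lines and share library depth, so no p is given. PLAT, the tissue plasminogen activator, for example, was at 1.41 and 8.69 CPM in HEC-1A with DMSO and AG-205, and at 238 and 215 CPM in T-HESC. EMP3 was at 0.777 and 3.93 CPM in HEC-1A and at 254 and 391 CPM in T-HESC. The genes most like AXL were TNS1, FNBP1, IFFO2, SH3RF1 and RBFOX2, with r from 0.993 to 0.996. TNS1, which links integrins to actin, was at 8.19 and 5.69 CPM in HEC-1A and at 206 and 150 CPM in T-HESC.

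Total counts per library ranged from 7168542 to 15178276. All 6 epithelial markers had at least 10 counts in every HEC-1A library. Their summed level in HEC-1A was 1297 to 1457 CPM with DMSO and 1979 to 2045 CPM with AG-205, against 221 to 386 CPM in T-HESC. In each T-HESC group, 4 of the 6 also had at least 10 counts in every library, while EPCAM and CDH1 were near 0. The 6 stromal markers summed to 8.34 to 14.2 CPM in HEC-1A and to 12634 to 26507 CPM in T-HESC. The 5 markers of macrophages and endothelium summed to at most 2.78 CPM in T-HESC and 0.590 CPM in HEC-1A, and PTPRC and CDH5 were at 0 in HEC-1A. In bulk RNA, fewer cells that express a gene and less RNA per cell cannot be told apart, which applies to the low GAS6 and GAS6-AS1 levels in HEC-1A in particular.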

How the data were processed

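The authors selected polyA RNA, sequenced it as paired 150-base reads, trimmed it with Trimmomatic 0.38, aligned it to GRCh38 with HISAT2 2.1.0 and counted it with featureCounts of Subread 2.0.0, per the labels and the study's methods. They deposited raw counts per gene for 58735 genes in 12 libraries. Strandedness and the handling of read pairs and of reads with several matches are not given in the sources used here.

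Each line was fitted with edgeR 4.0.16 in R 4.3.3 (TMM scaling, filterByExpr, quasi-likelihood test, Benjamini-Hochberg adjustment over all genes tested), and a call needed an adjusted p below 0.05 together with a log2 change larger than 1 in size. The difference of effects was tested in a fit of all 12 libraries, the lines in the 6 DMSO libraries. With 3 libraries per group a test of a single gene has little power, so the spread was shared across genes. CPM are counts over TMM-adjusted totals of all libraries, and CPM per kb use the union of GENCODE 44 exons. Ratios of summed counts have exact (Clopper-Pearson) 95% intervals, for counting error only. Gene lists give the genes called with AG-205 or otherwise the 3 with the smallest p in HEC-1A. Not every gene so picked is reported here. Promoter sequences came from RefSeq (GRCh38.p14). The scripts were tested on simulated data. Libraries of a group differed in a chi-square over genes (1.79 to 207 per degree of freedom), so none was a copy. Alternatives were DESeq2 1.42.0, RLE size factors, no low-count filter, a replicate block, a fit of all libraries and single libraries left out. The members, lists and tests were chosen with earlier results of these data known. Genes are named by these rules, and TMEM255B, EPCAM, CDH1, PTPRC and CDH5 were named in addition.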

Additional observations from a re-analysis of the deposited data

Results flagged for a closer look

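GAS6-AS1 moved in opposite directions in the lines, with every AG-205 library on the same side of every DMSO library in each. Taken alone, the epithelial line had 31.5% of its tested genes split this cleanly, in either direction, and the stromal line 11%. The mean level of GAS6-AS1 with AG-205 minus DMSO was 3.36 CPM in HEC-1A and -2.15 CPM in T-HESC. The difference was not tested, since the gene was chosen for its response. In the same T-HESC libraries GAS6-DT also lay below its controls, at 3.49 ± 0.904 CPM against 6.36 ± 0.525 CPM. Its groups did not overlap, as for 11% of all genes tested in T-HESC. No neighbour of GAS6 tested in T-HESC had an edgeR adjusted p under 0.05.

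LGALS3 had a larger AG-205 effect in HEC-1A than in T-HESC, with a difference of -1.58 on the log2 scale (T-HESC minus HEC-1A, edgeR adjusted p = 0.0298). The adjusted p was 0.217 with a replicate block and 0.0586 to 0.141 in the fits that left out 1 HEC-1A or 1 T-HESC DMSO library, and the test passed in 7 of 17 alternative settings. The AG-205 libraries were above all DMSO libraries in 3 of 3 in HEC-1A, where 31.5% of all genes tested had groups apart in either direction.

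RPL23AP97, a pseudogene within 500 kb of GAS6, went the opposite way in the lines at 1 to 11 counts per library, by -0.167 CPM in HEC-1A and 0.353 CPM in T-HESC. The difference was not tested, because the gene did not pass the filter on low counts.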

How the results depend on the processing

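Counts of genes called moved with the settings. In HEC-1A, 393 genes were called, 141 in a fit of all 12 libraries, and 310 to 589 with single libraries left out. In T-HESC, 11 were called, 116 with DESeq2, 181 without the low-count filter, 160 in the fit of all libraries, and 0 to 72 with single libraries left out. For the difference between the lines, 28 were called, 86 with DESeq2, 141 without the filter, 55 without both HEC-1A AG-205 replicate 3 and T-HESC AG-205 replicate 1 (chosen after seeing the data), and 4 to 80 with single libraries left out. The cause was not tested. A replicate block gave 363 in HEC-1A, 9 in T-HESC, 6594 for the lines and 0 for the difference, where 0 list genes were left in place of 1 (LGALS3, edgeR adjusted p = 0.217). The labels do not say whether equal numbers share a culture experiment, and correlations cannot decide it. Same-number correlations were -0.06, 0.18 and -0.00 in HEC-1A and 0.21, -0.43 and -0.03 in T-HESC. Not every library was closest to its own number, as T-HESC AG-205 replicate 2 was closest to DMSO replicate 3, at 0.62. With single libraries left out, 0 to 1 list genes were called in the difference, and over all 17 alternatives LGALS3 was called in 7.

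Left-out libraries changed the sign of small log2 values: TYRO3 (-0.13 to 0.064) and MERTK (-0.041 to 0.12) in HEC-1A, PROS1 (-0.010 to 0.46) and TYRO3 (-0.44 to 0.14) in T-HESC, and in the difference PROS1 (-0.19 to 0.28), AXL (-0.39 to 0.16) and TYRO3 (-0.38 to 0.20). Without both named libraries AXL was at 0.035 and TYRO3 at 0.10 there. The differences of PROS1, AXL and MERTK between the DMSO groups kept their direction and call in all 11 alternatives.

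With the longest transcript as length, the AXL share was 83.8% in HEC-1A DMSO, 79.8% in HEC-1A AG-205 and 98.2% in T-HESC DMSO. In the same groups that of TYRO3 was 10.9%, 13.3% and 1.78%. That of GAS6 in the sum of GAS6 and PROS1 (also chosen after seeing the data) was 0.293%, 2.70% and 98.4%. Depth limits GAS6 and GAS6-AS1 in HEC-1A DMSO (9 counts and 1) and MERTK in T-HESC (3 counts and 0).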
